A study of Mus musculus with 55 samples.

Results

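The comparison set cerebella of R192 mice given chlorpyrifos oxon (CPO) at 0.35 mg/kg/day against cerebella of R192 mice given the vehicle, dimethyl sulfoxide (DMSO). Its members were the 5 arrays titled R192 with the dose 0.35 and the 4 arrays titled R192 with DMSO, 9 of the 55 arrays in the series, and every gene that a probe set names by a single symbol, of which there were 19938. The groups are called R192 0.35 and R192 vehicle. Both carry the genotype labelled tgHuPON1R192, a human PON1 transgene with arginine at the variable position, in the strain C57Bl/6. Both received daily subcutaneous injections from postnatal day 4 to 21, and RNA was taken from bisected cerebellum at day 22. The other groups used were R192 mice at 0.5 mg/kg/day (5 arrays), and mice at 0.35 and on vehicle with the Q192 transgene (9 arrays), labelled as Pon1 knockout (9 arrays) or wild type (WT, 12 arrays), all of that strain and age and injected on the same days. The injection protocol writes chlorpyrifos beside the abbreviation CPO, while the design text defines CPO as the oxon, and the oxon is taken here. The labels name neither the promoter of the transgene nor the status of the mouse Pon1 gene in the R192 line. They also do not say that each array is a separate animal, so the spread behind each p-value is that between arrays and may be technical.

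CPO is the oxidised, active form of the insecticide chlorpyrifos. It blocks acetylcholinesterase, the enzyme that clears acetylcholine at synapses, and it reacts with other serine hydrolases as well. Paraoxonase 1 (PON1) is a liver enzyme carried in blood on lipoprotein particles that hydrolyses CPO, and the human forms with arginine (R192) and glutamine (Q192) differ in how efficiently they do so. The mouse cerebellum is still growing over the days of injection: granule neurons are born and migrate inward, Purkinje cells extend their dendrites, and oligodendrocytes lay down myelin.

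On this array the mouse Pon1 probe set does not read as a check of the transgene. It averaged 10.13 ± 0.11 on the log2 scale over the 14 R192 arrays, 10.10 ± 0.14 over 14 Q192 arrays and 10.08 ± 0.19 over the 12 arrays labelled knockout, against 5.19 ± 0.24 over 15 WT arrays (SD). The probe set was thus high in all 3 modified lines, including the line labelled knockout, which is written as "labelled KO" for that reason. Of the markers with such a probe set, 21 of 21 for granule neurons and 17 of 17 for Purkinje cells lay above the level filter of 6.44. That filter was passed by 14953 of 19938 genes, and also by 12 of 12 choroid plexus and 30 of 31 brainstem and midbrain neuron markers, so it shows that the markers were measured and not which tissue was taken. The 9 arrays had medians of 7.43 to 7.48, and none of the 16 pairs of arrays within the groups held the same values.

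No gene differed between R192 0.35 and R192 vehicle after adjustment. Of 14949 genes tested with limma and Benjamini-Hochberg adjustment, 0 (0%) passed at an adjusted p under 0.05, and the smallest adjusted p was 0.921. Before adjustment, 535 genes (3.58%) had a p under 0.05, 368 of them higher (2.46%) and 167 lower (1.12%) in R192 0.35. The 5 R192 0.35 values and the 4 R192 vehicle values did not overlap for 378 genes (2.53%), with 293 higher (1.96%) and 85 lower (0.569%). The split by direction depended on scaling: with each array centred on its median, which lowered the median difference of all genes to -0.03, 123 genes were higher and 422 lower at an unadjusted p under 0.05. Differences ran from -0.72 to 0.53 on the log2 scale, 8 genes differed by over 0.5 and 0 by over 1. The median gene had a difference of 0.01 and a 95% interval reaching 0.18 to either side. For a gene of that precision, smaller differences could not be told from 0 even before adjustment. "Higher" and "lower" describe measured values here, since no gene passed. Differences come from the fit, which accounts for the array date, so they can depart slightly from the difference of the plain means.

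**Figure D1:**
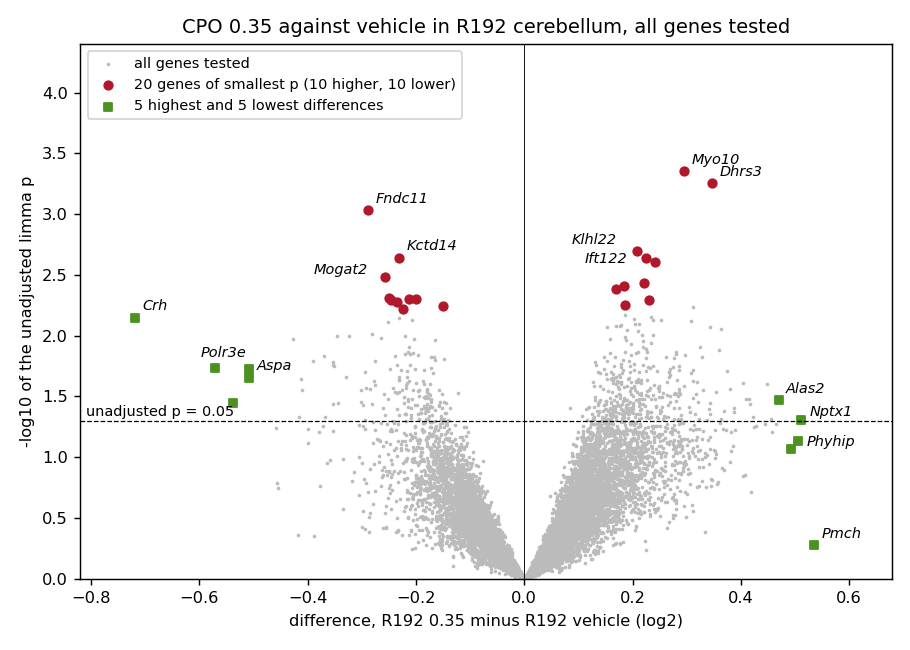
Each point is 1 of the 14949 genes tested, with the fitted difference R192 0.35 minus R192 vehicle (log2) across and -log10 of the unadjusted limma p upwards. The 10 higher and 10 lower genes of smallest p (red) lie between -0.29 and 0.35. The widest differences (green) reach -0.72 for Crh and 0.53 for Pmch, and none of the genes passed after adjustment.

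Among the genes higher in R192 0.35, the smallest p-values belonged to Myo10 and Dhrs3. Myo10 encodes a myosin that carries cargo to the tips of filopodia. It measured 8.92, 8.79, 8.99, 8.93 and 9.06 in R192 0.35, against 8.72, 8.58, 8.76 and 8.59 in R192 vehicle. The lowest R192 0.35 array lay just above the highest vehicle array, and the fitted difference was 0.30 (SE 0.078, 95% interval 0.14 to 0.45), a 1.23-fold higher level. Dhrs3 encodes a reductase that turns retinaldehyde back into retinol. Its values were 8.59, 8.58, 8.68, 8.66 and 8.87 in R192 0.35 and 8.32, 8.20, 8.55 and 8.35 in R192 vehicle. These groups did not overlap either, and the difference was 0.35 (SE 0.094, 95% interval 0.16 to 0.54). Both genes had an adjusted p of 0.921 by limma.

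Klhl22, an adaptor of a cullin ubiquitin ligase, varied little within the groups. It measured 9.51, 9.58, 9.54, 9.49 and 9.59 in R192 0.35, against 9.35, 9.38, 9.35 and 9.32 in R192 vehicle. Every R192 0.35 array was above every vehicle array, and the difference was 0.21 (SE 0.064). Sin3a, the scaffold of a histone deacetylase complex, had 8.75, 8.63, 8.83, 8.75 and 8.77 in R192 0.35 and 8.52, 8.48, 8.46 and 8.59 in R192 vehicle, also without overlap. Its difference was 0.24 (SE 0.075). Ift122, a subunit of the transport complex of cilia, measured 7.77, 7.89, 7.98, 8.03 and 8.02 in R192 0.35, against 7.60, 7.69, 7.81 and 7.77 in R192 vehicle. One R192 0.35 array lay among the vehicle arrays, and the difference was 0.23 (SE 0.070).

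The other 5 of the 10 higher genes were Rusf1, the ribosome assembly factors Pdcd11 and Kri1 (the role of Kri1 is known from yeast), Paqr3, a Golgi protein that holds back Raf kinase, and Galnt18, of the family of enzymes that start mucin-type glycosylation. Their differences ran from 0.17 for Paqr3 to 0.23 for Galnt18. The groups did not overlap for 7 of the 10 genes and did for Ift122, Rusf1 and Kri1. The 10 were chosen for small p in these same arrays, which favours separation. Of all genes tested, 1.96% were higher without overlap. Kri1 differed by 0.08 among the arrays of the earlier date alone and by 0.26 among those of the later date. All 10 had an adjusted p of 0.921 by limma.

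The 10 genes of smallest p in the lower direction had differences between -0.29 and -0.15, and the groups did not overlap for 4 of them. They were chosen in the same way, and 0.569% of all genes tested were lower without overlap. Fndc11 had the smallest p. It measured 6.65, 6.76, 6.44, 6.58 and 6.46 in R192 0.35, against 6.90, 6.88, 6.92 and 6.74 in R192 vehicle, so that the lowest vehicle array lay below the highest R192 0.35 array. The difference was -0.29 (SE 0.082), and -0.19 among arrays of the earlier date alone. Mogat2 encodes an acyltransferase of triacylglycerol synthesis. Its values were 6.40, 6.40, 6.45, 6.13 and 6.39 in R192 0.35, against 6.63, 6.56, 6.68 and 6.57 in R192 vehicle, a difference of -0.26 (SE 0.083). The groups did not overlap, and replicate 4 of R192 0.35 stood below the rest. The R192 0.35 mean of 6.35 was below the level filter.

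P2ry14, a receptor for UDP-glucose, had 7.20, 7.33, 7.28, 7.33 and 7.33 in R192 0.35 and 7.44, 7.54, 7.51 and 7.64 in R192 vehicle. All R192 0.35 arrays were below all vehicle arrays, with a difference of -0.25 (SE 0.085). Crybb3, a beta-crystallin, and Prss53, a serine protease, differed by -0.15 and -0.22 and did not overlap either. Kctd14 differed by -0.23, which became -0.14 without replicate 2 of R192 vehicle, and its R192 0.35 mean of 6.38 was also below the filter. Of cytokine genes, this set held Cklf at -0.25 and Il12a at -0.24, with -0.13 for Il12a among arrays of the earlier date. Zfp14, a zinc finger gene, differed by -0.21 and 2410080I02Rik by -0.20. All 10 lower genes had an adjusted p of 0.921 by limma.

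**Figure D2:**
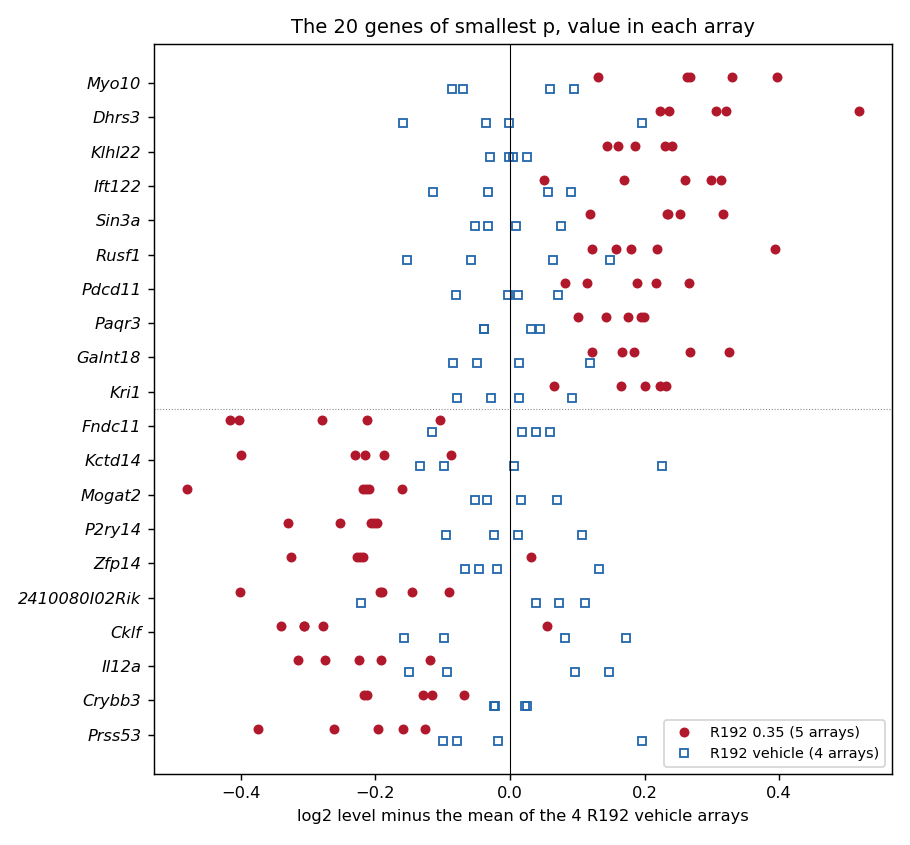
Values of the 20 genes of smallest p in each array, as log2 level minus the mean of the 4 R192 vehicle arrays, for 5 R192 0.35 arrays (red circles) and 4 R192 vehicle arrays (blue squares), with the 10 higher genes above the dotted line and the 10 lower genes under it. The groups do not overlap for 7 of the higher and 4 of the lower genes, all chosen for their p in these same arrays.

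The widest differences belonged to other genes, whose arrays were also more scattered. Crh encodes corticotropin-releasing hormone, which in the cerebellum is carried by climbing fibres from the inferior olive. It measured 5.90, 5.85, 6.58, 6.44 and 6.12 in R192 0.35, against 6.78, 6.99, 6.86 and 6.82 in R192 vehicle. No R192 0.35 array reached the vehicle arrays, and the fitted difference was -0.72 (SE 0.255, 95% interval -1.23 to -0.20), with an adjusted p of 0.921 by limma. It was -1.01 among arrays of the earlier date and -0.46 among those of the later date. The R192 0.35 mean of 6.18 was below the level filter of 6.44.

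Polr3e, a subunit of RNA polymerase III, had 10.85, 10.26, 10.38, 10.76 and 10.50 in R192 0.35 and 10.76, 10.74, 11.21 and 11.62 in R192 vehicle, a difference of -0.57 (SE 0.234). The groups overlapped, the difference was -0.19 on the earlier date and -0.87 on the later date, and another probe set of the gene differed by 0.04 (SE 0.071). Aspa, the oligodendrocyte enzyme that splits N-acetylaspartate, measured 10.19, 9.92, 10.09, 10.52 and 9.95 in R192 0.35, against 10.31, 10.54, 10.53 and 10.96 in R192 vehicle, a difference of -0.51 (SE 0.215). One R192 0.35 array lay within the vehicle range. Cdh19, a cadherin, differed by -0.54, with overlap, and by -0.27 on the earlier date. Smco3 differed by -0.51, without overlap.

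In the higher direction, Pmch had the widest difference and the widest scatter. Pmch encodes the precursor of melanin-concentrating hormone, a peptide of hypothalamic neurons. It measured 8.06, 9.37, 5.75, 5.89 and 7.17 in R192 0.35, against 7.31, 5.87, 6.92 and 6.65 in R192 vehicle. Both R192 0.35 arrays of the earlier date lay above all vehicle arrays, and those of the later date lay below the highest vehicle array. The Pmch difference of 0.53 (SE 0.838) became -0.11 without replicate 2. Alas2, the first enzyme of haem synthesis in red cell precursors, measured 9.14, 10.01, 9.16, 9.24 and 8.82 in R192 0.35 and 8.85, 8.94, 8.48 and 8.82 in R192 vehicle. Its difference of 0.47 (SE 0.215) became 0.24 without replicate 2, the highest R192 0.35 array.

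Nptx1, a neuronal pentraxin that gathers glutamate receptors at synapses, was higher with less scatter than Pmch. Nptx1 had 9.81, 9.60, 9.96, 9.70 and 9.93 in R192 0.35, against 9.56, 9.32, 9.50 and 9.02 in R192 vehicle. Its difference was 0.51 (SE 0.253, adjusted p = 0.921 by limma). All R192 0.35 arrays lay above the vehicle arrays. Phyhip differed by 0.51 and Atp2a3, a calcium pump of the endoplasmic reticulum, by 0.49, both with overlap. With the mean of the granule neuron markers as a covariate, the differences were 0.21 for Nptx1, 0.21 for Phyhip and 0.17 for Atp2a3. That mean came from the same arrays and was itself higher on average in R192 0.35, and the cause of the smaller values was not tested. Among arrays of the earlier date the differences were 0.27 for Nptx1, 0.30 for Phyhip and 0.24 for Atp2a3.

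None of the paraoxonase or cholinesterase genes passed, and their groups overlapped. Pon1 had 10.11, 10.21, 10.09, 10.28 and 9.98 in R192 0.35 and 10.02, 10.19, 10.11 and 10.27 in R192 vehicle, a difference of -0.02 (SE 0.128). Pon2 differed by 0.02 (SE 0.092) and Pon3 by 0.00 (SE 0.152), and the sign of each of the 3 changed with the settings, the centring of arrays included for Pon2 and Pon3. Ache encodes acetylcholinesterase. It measured 8.70, 8.49, 8.66, 8.47 and 8.88 in R192 0.35, against 8.72, 8.50, 8.70 and 8.32 in R192 vehicle. The difference was 0.11 with a 95% interval of -0.30 to 0.52 (adjusted p = 0.948 by limma). The values thus left room for a true difference anywhere in that interval, in either direction. Among arrays of the earlier date the measured difference was -0.01. Bche, butyrylcholinesterase, which hydrolyses choline esters in plasma and glia, had 7.63, 7.45, 7.76, 7.89 and 7.55 in R192 0.35, against 7.53, 8.02, 7.70 and 8.05 in R192 vehicle. It differed by -0.21 (95% interval -0.50 to 0.09, adjusted p = 0.921 by limma) and by -0.11 without replicate 2 of R192 vehicle.

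Genes of acetylcholine synthesis, transport and reception showed no common direction. Of 26 tested, 12 were higher and 14 lower, 0 passed, and the median difference was -0.02 (-0.057 with arrays centred, -0.037 to -0.0024 with 1 array left out), beside 0.01 over all genes tested, of which 54.9% were higher. Chrnb2, a subunit of the main neuronal nicotinic receptor of brain, measured 8.30, 8.30, 8.51, 8.29 and 8.45 in R192 0.35, against 8.20, 8.07, 8.25 and 7.94 in R192 vehicle. Its groups did not overlap, and its difference of 0.29 (SE 0.140) was the highest of the list. Chrna3, another nicotinic subunit, differed by 0.14. The lower members of smallest p were Chrna9, at -0.18 (SE 0.083, with an R192 0.35 mean of 6.42, below the filter), and Chrm4, a muscarinic receptor, at -0.13 (SE 0.075). The lowest difference of the list was wider, at -0.46, equal to that of the choline transporter gene Slc5a7, given below with the brainstem markers.

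Of 49 genes listed for the serine hydrolase family, only some of which are organophosphate targets, 38 were higher and 11 lower. The median was 0.06 and 0 passed, and 29 were higher with arrays centred (median 0.017). Apeh, an acylpeptide hydrolase known as a sensitive organophosphate target, had 8.42, 8.39, 8.58, 8.42 and 8.59 in R192 0.35 and 8.32, 8.24, 8.36 and 8.11 in R192 vehicle. The arrays did not overlap, and the difference was 0.24 (SE 0.088). Lypla2, a thioesterase, differed by 0.23 (SE 0.115), Abhd5, a lipase coactivator, by -0.15 (SE 0.079) and the carboxylesterase Ces3a by -0.19 (SE 0.110). Of 34 genes of drug and oxon metabolism, 20 were higher, with a median of 0.04, and 16 were higher with arrays centred (median -0.0036). Without replicate 1 of R192 vehicle the median was -0.0017. Gstm1, a glutathione transferase, differed by 0.26 (SE 0.113) and the export pump Abcc4 by 0.12. The export pump Abcg2 differed by -0.27 (SE 0.148) and the cytochrome Cyp2j6 by -0.22.

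Of the 29 gene lists, granule neuron markers had the highest median. In RNA from tissue pieces, fewer cells of a type and less RNA per cell cannot be told apart. All 21 granule neuron markers were higher in R192 0.35, by 0.06 to 0.33 with a median of 0.27 (0.23 with each array centred on its median), though none passed over all genes tested and 0 had an unadjusted p under 0.05. Their mean level was 10.76, 10.63, 10.78, 10.71 and 10.69 in the R192 0.35 arrays, against 10.63, 10.51, 10.54 and 10.33 in the R192 vehicle arrays. The lowest R192 0.35 mean of 10.6296 and the highest vehicle mean of 10.6291 were all but equal. Kcnd2, a potassium channel of granule neurons, measured 11.09, 11.01, 11.23, 11.04 and 11.11 in R192 0.35 and 10.92, 10.90, 10.85 and 10.76 in R192 vehicle, a difference of 0.27 (SE 0.141) without overlap. Grin2c, the NMDA receptor subunit that mature granule neurons take up, differed by 0.33 (SE 0.177), with overlap. The other 4 markers without overlap were Chn2, Neurod1, Zic1 and Cbln3, named after their values were seen, with differences of 0.20, 0.27, 0.27 and 0.29. Of all genes tested, 1.96% were higher without overlap.

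Of 17 Purkinje cell markers, 16 were higher, with a median of 0.17. Their mean was 10.18, 10.18, 10.26, 10.21 and 10.29 in R192 0.35, against 10.11, 10.08, 10.05 and 9.89 in R192 vehicle, and these means did not overlap. Cacna1g, a T-type calcium channel, measured 8.92, 8.63, 8.91, 8.70 and 9.10 in R192 0.35 and 8.72, 8.27, 8.54 and 8.22 in R192 vehicle, with a difference of 0.45 (SE 0.194). Dner, a Notch ligand of Purkinje cells, had 10.77, 10.58, 10.77, 10.59 and 11.13 in R192 0.35 and 10.56, 10.27, 10.53 and 10.26 in R192 vehicle, a difference of 0.42 (SE 0.194) without overlap. Foxp2 was the lower member, at -0.04. Of 14 markers of molecular layer interneurons and Golgi cells, 11 were higher, with a median of 0.08, or 0.038 with arrays centred. Gad1, which makes GABA, measured 10.68, 10.60, 10.74, 10.57 and 10.85 in R192 0.35, against 10.46, 10.44, 10.50 and 10.25 in R192 vehicle, and differed by 0.31 (SE 0.142) without overlap. Tfap2b, a transcription factor of inhibitory neurons, differed by 0.25, whereas Slc6a5, the glycine transporter of Golgi cells and of brainstem neurons, differed by -0.21 and Nxph1 by -0.16.

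Glial markers went both ways. Of 20 markers of Bergmann glia and astrocytes, 17 were higher, with a median of 0.14. Sox9, a transcription factor of glia, had 8.50, 8.39, 8.47, 8.39 and 8.69 in R192 0.35 and 8.37, 8.02, 8.34 and 8.20 in R192 vehicle, differing by 0.28 (SE 0.124) without overlap. Vim, an intermediate filament of glia, differed by 0.31. S100b, a calcium-binding protein of astrocytes, differed by -0.18 (SE 0.089) and the water channel Aqp4 by -0.09 (SE 0.075). Of 23 markers of oligodendrocytes and myelin, 18 were lower and 5 higher, with a median of -0.11 that became -0.07 without replicate 2 of R192 0.35. Ermn, a cytoskeletal protein of mature oligodendrocytes, measured 11.28, 11.11, 11.47, 11.74 and 11.21 in R192 0.35, against 11.50, 11.85, 11.66 and 12.01 in R192 vehicle, a difference of -0.46 (SE 0.235) with overlap. The groups did not overlap for 3 members named after their values were seen, Opalin at -0.33, Mobp at -0.22 and Mbp at -0.11, all genes of myelinating cells. None of these had an unadjusted limma p under 0.05, and 0.569% of all genes tested were lower without overlap. The lineage factor Sox10 differed by 0.16 (SE 0.160) and Myrf, which switches on myelin genes, by 0.07 (SE 0.175).

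Of 20 microglia markers, 13 were higher, with a median of 0.04 that became -0.05 without replicate 5 of R192 0.35 and 0.0015 with arrays centred. Cd68, a lysosomal protein of phagocytes, measured 7.50, 7.36, 7.46, 7.42 and 8.52 in R192 0.35, against 7.42, 7.37, 7.35 and 7.35 in R192 vehicle. Replicate 5 alone was high, and the other 4 arrays lay close to the vehicle arrays. Laptm5, a lysosomal gene of blood-derived cells, differed by 0.27, while the purinergic receptor gene P2ry12 and Gpr34, both typical of resting microglia, differed by -0.18 and -0.16. Of 17 markers of endothelial cells and pericytes, 13 were higher (median 0.11, or 0.070 with arrays centred). Kdr, a receptor for vascular endothelial growth factor, differed by 0.34 (SE 0.162) and Pdgfrb, a receptor of pericytes, by 0.20. In the other direction Slco1a4, a transporter of the blood-brain barrier, differed by -0.24 (SE 0.138) and Itm2a by -0.18 (SE 0.122). Of 12 choroid plexus markers, 11 were higher, with a median of 0.14 that became 0.08 without replicate 3 of R192 vehicle. Kl and Clic6 differed by 0.33 and 0.30 without overlap, beside 1.96% of all genes tested that were higher without overlap. The lower member was Kcnj13, at -0.0079.

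Markers of brainstem and midbrain neurons bear on how much neighbouring tissue a bisected cerebellum carries. Of 30 tested, 22 were lower and 8 higher, with a median of -0.07. It was -0.036 without replicate 2 of R192 0.35, -0.11 without replicate 1 and -0.11 with arrays centred. Their mean was 7.95, 7.78, 7.89, 7.84 and 7.95 in R192 0.35, against 7.88, 8.03, 8.08 and 7.94 in R192 vehicle, so the groups overlapped. Slc5a7, the choline transporter of cholinergic neurons, had 7.49, 7.05, 8.17, 7.79 and 7.96 in R192 0.35 and 7.53, 8.48, 8.41 and 8.06 in R192 vehicle, a difference of -0.46 (SE 0.322). Gata2 differed by -0.17 (SE 0.090). Among higher members, Dbh, of noradrenaline synthesis, differed by 0.21 (SE 0.209), with a vehicle mean of 6.29, below the filter, and Isl1, a transcription factor of motor neurons, by 0.12. Both this list and the oligodendrocyte list were lower in R192 0.35 while the granule and Purkinje lists were higher. With the mean of the brainstem markers as a covariate, 739 genes had an unadjusted p under 0.05 and 0 passed in limma, and with the mean of the granule markers 298 and 0, against 535 and 0 with neither. These marker means came from the same arrays, and the part that any cell type plays in the differences was not tested.

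**Figure D3:**
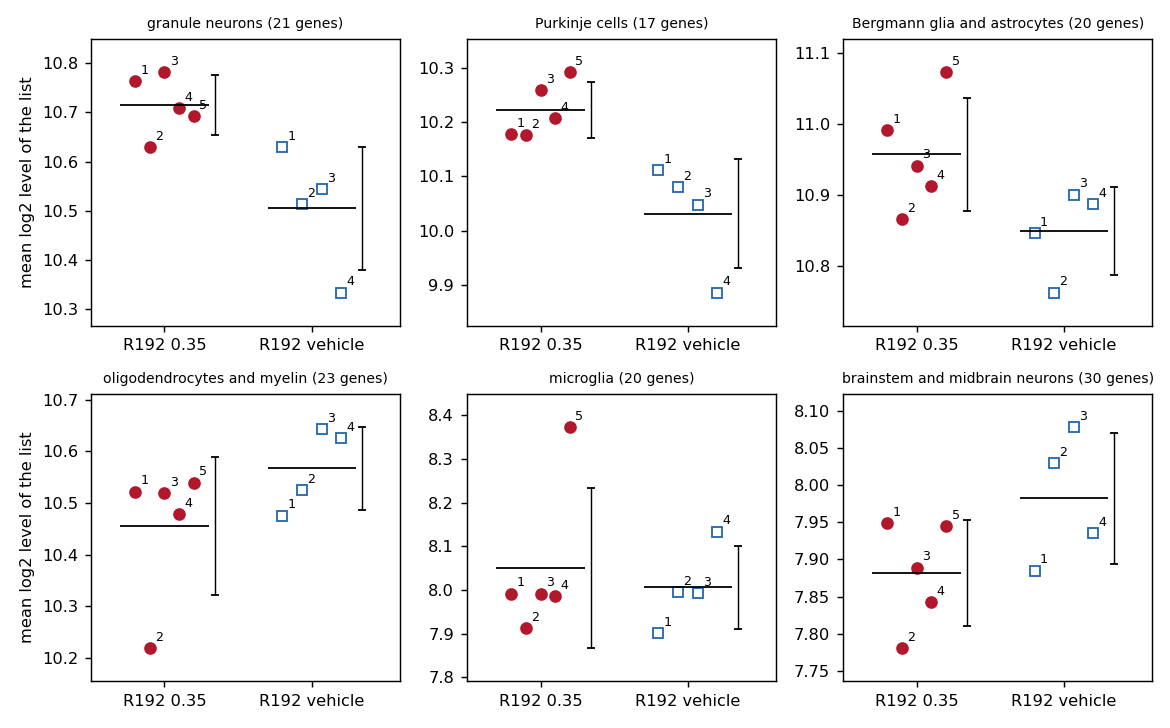
Mean log2 level of 6 cell type marker lists in each array of R192 0.35 (red circles) and R192 vehicle (blue squares), with replicate numbers, group means (lines) and SD (bars beside the points). The granule and Purkinje means of R192 0.35 lie above those of R192 vehicle, replicate 2 of R192 0.35 is low for oligodendrocytes (10.22) and replicate 5 is high for microglia (8.37).

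Most synaptic vesicle genes were higher as well. Of 43 genes of the synaptic vesicle cycle, 39 were higher, with a median of 0.08, of 0.04 with each array centred on its median and of 0.13 without replicate 2 of R192 0.35. Doc2b, a calcium sensor of vesicle release, measured 8.75, 8.65, 8.80, 8.56 and 8.97 in R192 0.35, against 8.61, 8.29, 8.46 and 8.18 in R192 vehicle. It differed by 0.40 (SE 0.174), with overlap, and the synapsin gene Syn2 by 0.22. Napb and Cadps, both of vesicle fusion, were lower members, at -0.078 and -0.035. Of 23 glutamate receptor genes, 16 were higher (median 0.03, but -0.0064 with arrays centred), and of 21 genes of the GABA system, 16 were higher (median 0.06, or 0.021 with arrays centred). Leaving out 1 array gave 0.017 (vehicle replicate 2) to 0.053 (vehicle replicate 4) for the glutamate receptors, and up to 0.094 (vehicle replicate 4) for the GABA system. Gria1, an AMPA receptor subunit, had 11.46, 11.57, 11.50, 11.43 and 11.53 in R192 0.35 and 11.29, 11.22, 11.37 and 11.22 in R192 vehicle, without overlap. It differed by 0.24 (SE 0.115), and Gabbr2, a subunit of the GABA-B receptor, by 0.26 (SE 0.126), also without overlap. Lower members were the glutamate receptors Grm3 at -0.13 and Grm6 at -0.073, and the GABA-A subunits Gabrg1 at -0.30 and Gabra4 at -0.16. Of 61 genes of axon guidance and outgrowth 43 were higher (median 0.07, or 0.029 with arrays centred and 0.042 without replicate 2 of R192 vehicle). Beside Myo10, the adhesion gene Ncam1 differed by 0.20 (SE 0.094), and the guidance genes Efna5 and Sema3e by -0.15 and -0.16. Of 37 potassium channel genes 25 were higher, with a median of 0.06 that was 0.023 with arrays centred, 0.031 without replicate 4 of R192 vehicle and 0.12 without replicate 2 of R192 0.35. Kcnd3 differed by 0.17, Kcnj16 by -0.16 and Kcnh7 by -0.15.

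Retinoid genes, the pathway of Dhrs3, were split evenly, with 15 of 30 higher and 15 lower and a median of 0.00, or -0.036 with arrays centred. Rdh5, a retinol dehydrogenase, differed by 0.26 (SE 0.104). Aldh1a7 measured 6.91, 7.14, 6.45, 6.94 and 6.78 in R192 0.35, against 7.17, 7.30, 7.25 and 7.33 in R192 vehicle, a difference of -0.43 (SE 0.160). Its groups did not overlap. Aldh1a1, which makes retinoic acid and is close to Aldh1a7 in sequence, differed by -0.20 (SE 0.095), with overlap, and signal shared between such similar genes is uncertain on an array.

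Of 33 immediate early genes, which respond to neuronal activity and handling, 24 were higher, with a median of 0.12, or 0.076 with arrays centred. Dusp1, a phosphatase of MAP kinases, measured 10.41, 9.86, 10.04, 9.92 and 10.26 in R192 0.35, against 9.64, 9.58, 10.14 and 9.37 in R192 vehicle. It differed by 0.46 (SE 0.225), and 1 vehicle array lay among the R192 0.35 arrays. Npas4, an activity-dependent transcription factor, differed by 0.28 (SE 0.128), whereas Arc, a synaptic protein gene of the same kind, differed by -0.08 (SE 0.097). Nfil3 differed by 0.23 and Klf4 by -0.11. Among 20 circadian clock genes 11 were higher, with a median of 0.06 that was 0.016 with arrays centred, 0.027 without replicate 1 of R192 0.35 and 0.036 without replicate 2 of R192 vehicle. Arntl had 8.57, 8.58, 8.99, 9.06 and 8.47 in R192 0.35 and 8.46, 8.61, 8.30 and 8.36 in R192 vehicle, a difference of 0.28 (SE 0.112). Bhlhe40 differed by 0.33 (SE 0.130), and the lower clock genes Per2 and Nr1d2 by -0.080 and -0.025. Among 24 glucocorticoid response genes 10 were higher (median -0.05, or -0.090 with arrays centred, and -0.080 to -0.017 without replicate 1 and without replicate 2 of R192 0.35). Tsc22d3, an induced gene of that response, differed by -0.17 (SE 0.111), Hif3a by -0.17 and Klf9 by 0.12. The highest difference of this list was 0.46, equal to that of Dusp1 above.

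Stress, defence, cholesterol and cell cycle lists sat near the median gene, and the 3 of them with positive medians had negative ones with arrays centred. Leaving out 1 array also turned the sign of each of these 5 medians, as for cholesterol genes at 0.023 without replicate 2 of R192 0.35, interferon genes at 0.019 without replicate 4, heat shock genes at -0.0045 and glutathione genes at -0.0018 without replicate 1 of R192 vehicle, and cell cycle genes at -0.0075 without replicate 5 of R192 0.35. Of 40 genes of heat shock and the unfolded protein response, 25 were higher (median 0.02), with the chaperone genes Calr at 0.23 (SE 0.141), Hspa1a at -0.13 (SE 0.109) and Dnajb9 at -0.15, and Sel1l, of protein degradation at the endoplasmic reticulum, at 0.15. Of 40 genes of glutathione and oxidative stress, 24 were higher (median 0.02), with Txnrd2, a mitochondrial thioredoxin reductase, at 0.16 (SE 0.076) and Glrx, a glutaredoxin, at -0.27 (SE 0.145). The thioredoxin genes Txn2 and Txn1 differed by 0.11 and -0.11. Of 27 genes of interferon and inflammation, 12 were higher (median -0.01). Tnf measured 6.76, 6.73, 7.12, 6.93 and 6.83 in R192 0.35 and 6.70, 6.66, 6.67 and 6.53 in R192 vehicle, a difference of 0.23 (SE 0.102) without overlap, at a level near the filter. The receptor gene Tnfrsf1a differed by 0.28, and the interferon-induced genes Ifit1 and Gbp3 by -0.23 and -0.18. Of 20 cholesterol synthesis genes 9 were higher (median -0.03), with the regulator Srebf2 at 0.22 and the enzymes Mvd at 0.13, Sc5d at -0.14 and Idi1 at -0.25. Of 26 genes of granule precursors and the cell cycle 16 were higher (median 0.01), among them the Hedgehog receptor Ptch1 at 0.25 (SE 0.108) and the replication gene Mcm4 at 0.16, while the cell division genes Cdc6 and Cdc20 differed by -0.18 and -0.17.

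Most ribosomal and respiratory genes were lower. Of 55 cytosolic ribosomal protein genes, 48 were lower and 7 higher, with a median of -0.06. It was -0.0925 without replicate 3 of R192 vehicle and -0.0419 without replicate 1. The list mean of vehicle replicate 3, 10.91, lay within the R192 0.35 range of 10.90 to 10.95, so the groups overlapped. Rpl38 had 11.62, 11.54, 11.56, 11.60 and 11.44 in R192 0.35 and 11.69, 11.74, 11.67 and 11.71 in R192 vehicle, a difference of -0.17 (SE 0.082) without overlap. Rps18 differed by -0.12, and the higher members Rps19 and Rpl29 by 0.088 and 0.067. Of 71 respiratory chain genes, 47 were lower, with a median of -0.06 that was -0.030 without replicate 2 of R192 0.35 and -0.037 without replicate 2 of R192 vehicle. Ndufa6 and Ndufc1, subunits of complex I, both differed by -0.18 (SE 0.083 and 0.087), and Atp5a1 and Sdha by 0.11 and 0.10. With each array centred on its median, the ribosomal median was -0.10 and the respiratory median -0.11.

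**Figure D4:**
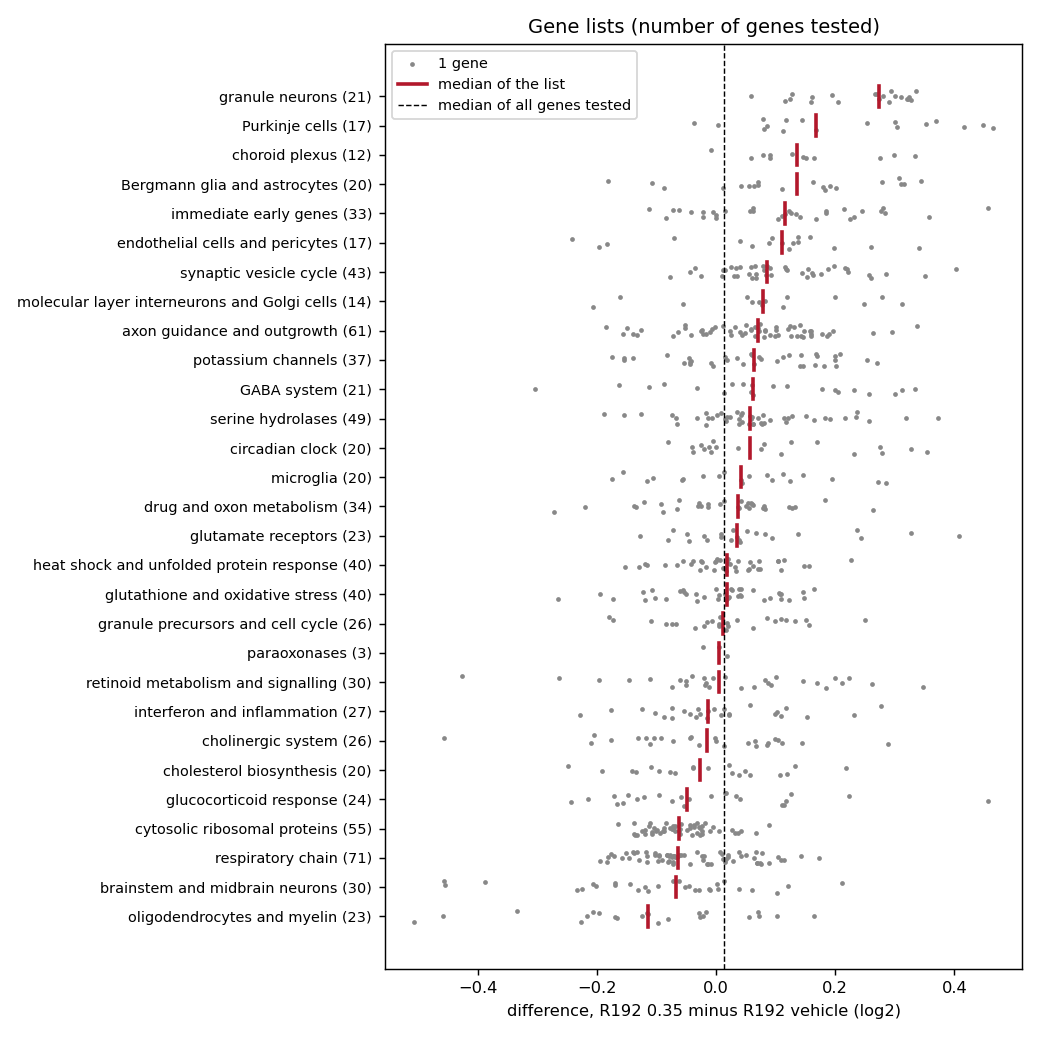
Fitted difference R192 0.35 minus R192 vehicle (log2) of each gene tested in 29 lists (grey points), with the median of the list (red) and the median of all 14949 genes tested (dashed line, 0.01). Granule neuron markers have the highest median at 0.27 and oligodendrocyte and myelin genes the lowest at -0.11.

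At 0.5 mg/kg/day in the same line, 0 genes (0%) passed against R192 vehicle in limma, with 152 (1.02%) at an unadjusted p under 0.05. Because this comparison uses the same 4 vehicle arrays, the values are set side by side only. Myo10 differed from vehicle by 0.30 at 0.35 and 0.23 at 0.5, Dhrs3 by 0.35 and 0.28, and Klhl22 by 0.21 and 0.08. For the 10 higher genes the differences at 0.5 ran from -0.02 to 0.28, and for the 10 lower genes from -0.15 to -0.03. The median of the granule markers was 0.27 at 0.35 and 0.05 at 0.5, that of the Purkinje markers 0.17 and 0.02, and that of the immediate early genes 0.12 and -0.03.

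Set against the higher dose directly, R192 0.35 also showed no gene that passed (0 of 14949, 0%, smallest adjusted p 0.999 by limma), with 340 (2.27%) at an unadjusted p under 0.05. Dusp1 measured 10.41, 9.86, 10.04, 9.92 and 10.26 in R192 0.35, against 8.93, 9.22, 9.93, 9.85 and 9.13 in R192 0.5. Its difference was 0.74 (SE 0.214, 95% interval 0.30 to 1.17). The selenium-binding protein gene Selenbp1 differed by 0.23 (SE 0.064) and Spata2l by 0.35 (SE 0.102). In the lower direction, the kinase gene Tssk3 differed by -0.27 (SE 0.075), the apoptosis gene Pmaip1 by -0.29 (SE 0.085) and the pancreatic transcription factor gene Pdx1 by -0.25 (SE 0.076), with an R192 0.35 mean of 6.40, below the filter.

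The same dose gave other values in the other genotypes. In limma, 0 genes passed in Q192 mice (306 at an unadjusted p under 0.05, 2.05%), 0 in labelled KO mice (963, 6.44%) and 1 (0.00669%), Mid1, in WT mice (3032, 20.3%). Of the 20 named genes (the 10 higher and 10 lower of smallest p in R192), 7 had the same sign in Q192, 10 in labelled KO and 4 in WT. Myo10 differed by 0.30 in R192 mice, -0.09 in Q192 mice, 0.08 in labelled KO mice and -0.05 in WT mice, and Dhrs3 by 0.35, -0.02, 0.07 and -0.08 in the same order. Across all 14949 genes, which are not independent of each other and were measured on shared array dates, the difference in R192 correlated with that in Q192 at a Pearson r of -0.37, in labelled KO at 0.19 and in WT at -0.07. No array is shared between these comparisons, though a labelled KO array at 0.35 carries the same description number as some R192 0.35 arrays.

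**Figure D5:**
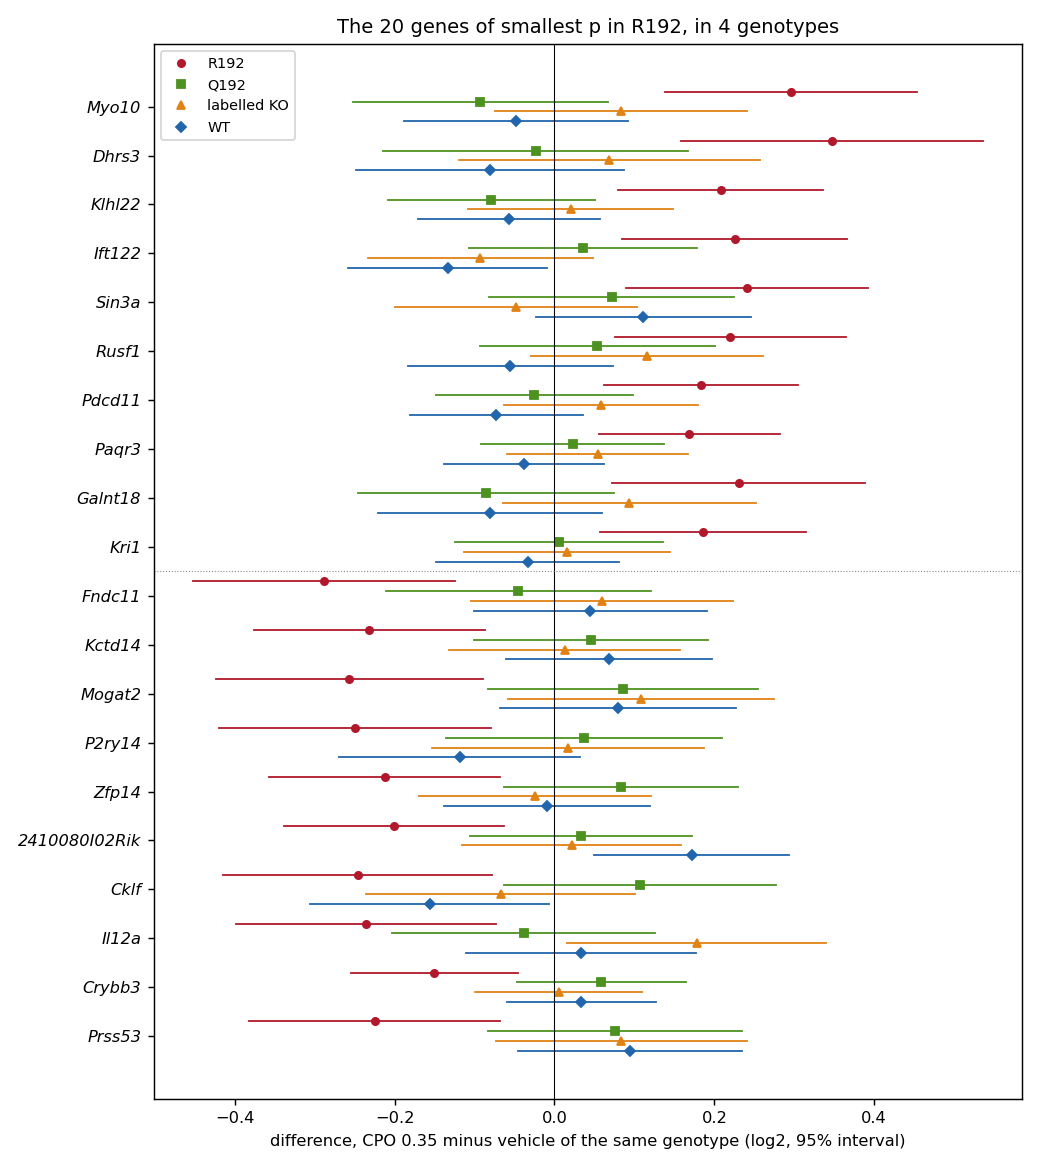
Difference CPO 0.35 minus vehicle of the same genotype (log2, with 95% interval) in R192, Q192, labelled KO and WT mice. Shown are the 10 higher and 10 lower genes of smallest p in R192. The R192 values were chosen for their p and their intervals leave out 0, while values of the other genotypes range from -0.16 to 0.18.

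The tests of the difference in response between genotypes gave no gene either. Between R192 and Q192, 0 genes passed in limma (smallest adjusted p 0.766), with 831 (5.56%) at an unadjusted p under 0.05. The response in R192 exceeded that in Q192 by 0.45 (SE 0.121) for Pdp2, a phosphatase that activates pyruvate dehydrogenase, by 0.39 (SE 0.111) for Myo10 and by 0.36 (SE 0.107) for Nhsl1. It was below it by values of -0.39 for Ovol3, -0.31 for Mettl22 and -0.44 for Tent5a, a poly(A) polymerase family gene. All 21 granule neuron markers were higher at 0.35 than on vehicle in R192 mice and 0 of 21 in Q192 mice, with medians of 0.27 and -0.12. In labelled KO mice 3 of 21 were higher (median -0.10) and in WT mice 20 of 21 (median 0.32).

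Between R192 and labelled KO, 0 genes passed in limma (smallest adjusted p 0.951), with 513 (3.43%) at an unadjusted p under 0.05. Crh had the widest of the named differences, -1.25 (SE 0.357, 95% interval -1.96 to -0.53), with -0.72 in R192 mice and 0.53 in labelled KO mice. Hsd11b2, which inactivates glucocorticoids, differed in response by -0.44 and Il12a by -0.41. On the other side stood Ift122 at 0.32, Gabarapl2, of autophagy, at 0.46, and Sde2 at 0.38. The 23 oligodendrocyte genes had a median of -0.11 in R192 mice, -0.11 in Q192 mice, 0.18 in labelled KO mice and -0.41 in WT mice.

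Between R192 and WT, 0 genes passed in limma (smallest adjusted p 0.317), and 2100 (14%) had an unadjusted p under 0.05. Mid1, a ubiquitin ligase of microtubules, had the smallest p, with a difference in response of -1.29 (SE 0.279), with a value in WT mice of 1.11. Usp11, a deubiquitinase, differed by 0.66 (SE 0.148), the transcription factor gene Npas3 by 0.53 (SE 0.125) and the organic anion transporter gene Slco2b1 by 0.49 (SE 0.127). In the lower direction Bmp8b differed by -0.44 (SE 0.103) and 2410080I02Rik by -0.37 (SE 0.091). Ache differed in response between R192 and WT by 0.63 (adjusted p = 0.323 by limma), with -0.52 in WT mice, and between R192 and Q192 by 0.38 (adjusted p = 0.793 by limma).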

How the data were processed

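Total RNA was hybridised to Affymetrix Mouse Gene 1.0 ST arrays. The authors deposited 1 value per probe set and array, made with Affymetrix Expression Console 1.1 and RMA per the submitters' processing notes, and these were taken as log2 levels, since they ran from 1.15 to 14.80 and no base is stated. Of 35557 probe sets, 21789 had 1 gene symbol, 1621 several and 12147 none. The probe set of highest mean was taken for the 999 genes with several, leaving 19938 genes. Genes above the 25th percentile of mean level (6.44) were tested, without 4 sex-linked genes, since sex is not labelled.

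Limma 3.58.1 in R 4.3.3 fitted all 55 arrays with 12 group means, array date (2 dates, each holding both groups) as covariate and the number in the array description as a correlated block (correlation 0.131), with 42 residual degrees of freedom. The labels do not say what that number stands for. In R192 0.35 replicates 3 and 4 share a number, which 1 labelled KO array also carries, and in R192 vehicle replicates 3 and 4 share another. P-values were adjusted over 14949 genes by Benjamini-Hochberg, and a gene passed under 0.05. The fit was tested on simulated data.

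The reported fit has no replicate block, so its p-values do not treat arrays as paired. Same-numbered arrays of both groups deviated together, with correlations of 0.31, 0.25, 0.33 and 0.50, and a fit with the replicate number from the titles as a block was run as an alternative. Unlike-numbered arrays gave -0.42 to 0.38. Same-numbered arrays also shared an array date, which was not removed from these deviations, so the pairing is a reading of the data.

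The comparison, members and gene lists were chosen with earlier results of these data known. Named genes were the 10 higher and 10 lower of smallest p, the 5 highest and 5 lowest differences, 2 members each way of each list, 3 genes each way in other comparisons, and Pon1, Pon2, Pon3, Ache and Bche. Lists are described by counts and medians, with no test. Alternatives changed the covariates, filter, weights, centring, probe set choice, arrays included and replicate block. The number of arrays limits the precision.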

Additional observations from a re-analysis of the deposited data

Results flagged for a closer look

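A single array stood apart from the others of its group in 6 of 128 checks over 35 genes and 29 list means, by Dixon's test at its 95% critical value, which chance alone meets in about 1 in 20 groups. Replicate 4 of R192 0.35 was apart for Mogat2, at 6.13 where the other arrays had 6.39 to 6.45, and for Cklf, at 7.18 where the others had 6.78 to 6.85. Replicate 2 of R192 0.35 had the low mean of oligodendrocyte and myelin genes, 10.22 against 10.48 to 10.54 in the others. Replicate 5 of R192 0.35 had high means for microglia (8.37, others 7.91 to 7.99) and for interferon and inflammation (7.68, others 7.50 to 7.52). Replicate 3 of R192 vehicle had a low mean of cytosolic ribosomal proteins, 10.91 where the other 3 arrays had 11.01.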

How the results depend on the processing

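Under 28 other settings, 0 genes passed between R192 0.35 and R192 vehicle, with smallest adjusted p-values from 0.0976 to 0.9998. The number at an unadjusted p under 0.05, 535 as reported, was 1266 with only the 9 arrays, 1911 with array quality weights, 175 among arrays of the earlier date and 298 with the granule marker mean as covariate. Leaving out 1 array gave 198 (without R192 vehicle replicate 2) to 999 (without R192 0.35 replicate 2), with 333 when R192 0.35 replicate 3 was left out, 280 for R192 0.35 replicate 5 and 862 for R192 vehicle replicate 3. The replicate block gave 730 and changed no call. With the block and only the 9 arrays, a setting chosen after seeing the data, the number was 1999. The share of these genes that were higher, 68.8% as reported, was 22.6% with arrays centred on their medians and 49.9% with arrays of 1 description number averaged. For R192 0.35 against R192 0.5 (340) the number was 1520 with array weights, 572 without the level filter and 250 to 597 with 1 array left out, the highest without R192 0.35 replicate 2. For R192 against Q192 (831) it was 3135 with weights and 403 to 1244 with 1 array left out, with 515 without R192 0.35 replicate 5 and the lowest without R192 vehicle replicate 2. For labelled KO (513) it was 1162 with weights and 323 (without R192 0.35 replicate 4) to 621, and for WT (2100) 1356 (without R192 vehicle replicate 2) to 2433. With array weights 1 gene, Mid1, passed between R192 and WT. The 10 higher and 10 lower genes of smallest p kept their sign in all 550 values. They were chosen for their p in largely the same arrays, so the kept signs are no separate support. Sign changes numbered 20 of 966 gene values, in Ache, Pmch, Pon1, Pon2 and Pon3. List medians changed sign in 20 of 319 values, in 10 of the 29 lists. Centring each array on its median gave list medians of -0.036 for retinoid, -0.023 for glutathione, -0.0064 for glutamate receptor and -0.10 for ribosomal genes. Leaving out 1 array gave -0.014 to 0.034 for retinoid genes and 0.031 to 0.12 for potassium channels. The causes were not tested.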
